A study of Drosophila melanogaster with 18 samples.

Results

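Lowering Flacc and lowering Fl(2)d, a pair of proteins of the same RNA-modifying complex, were set against each other directly in Drosophila S2R+ cells, an adherent line of embryonic origin with features of blood cells. The comparison used the 3 libraries labelled CG7358, the older name of Flacc, and the 3 labelled Fl2d, chosen by those labels, which makes 6 of the 18 libraries in the study. Each culture received 10 µg of double-stranded RNA against CG7358 or against Fl2d, given 3 times within 6 days, and polyadenylated RNA was sequenced. The other libraries, 3 per group, were treated in the same way against LacZ, a bacterial gene that served as control (Ctr), against Vir, against Nito, or against Ime4 and dMettl14 together. They do not enter the contrast, and their levels are given beside it. Separate cultures for the libraries of a group are not stated in the labels, so p-values measure a spread that may be technical. Flacc and Fl(2)d were each lowered in 1 group, without rescue. What the double-stranded RNA may do to unrelated transcripts cannot be told apart from the loss of its target.

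N6-methyladenosine (m6A) is placed on messenger RNA by a methyltransferase pair, Mettl3 and Mettl14, which works together with a larger set of associated proteins. Fl(2)d, the counterpart of mammalian WTAP, is the scaffold of that set and binds the methyltransferases, and Vir is the counterpart of VIRMA. Flacc, the counterpart of ZC3H13, is known to link Fl(2)d to the RNA-binding protein Nito. In flies the pathway is best known for helping Sex-lethal control its own splicing and for its role in the nervous system. The direct contrast addresses which transcripts depend differently on these proteins of one complex.

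Total counts were 16447639, 17120785 and 15993576 in the CG7358 libraries and 16243001, 15801372 and 16764705 in the Fl2d libraries. Mitochondrial transcripts took 4.06%, 2.89% and 3.88% of counts in CG7358 and 2.01%, 3.34% and 2.85% in Fl2d, so the groups overlapped. Replicate 2 of Fl2d stood apart in a few genes: 15 of 6309 genes were more than 1.5-fold above both other replicates, against 0 or 1 in each of the other 5 libraries. The blood cell transcription factor gene srp was present at 201 to 231 CPM (counts scaled to library size) over the 6 libraries and the scavenger receptor gene crq at 409 to 424 CPM. The plasmatocyte marker NimC1 stayed at 0.245 to 0.487 CPM, so some markers of mature blood cells were nearly absent from these cells. Neuron markers summed to 180 to 215 CPM in CG7358 and 185 to 215 CPM in Fl2d, muscle markers to 110 to 122 and 108 to 112 CPM, and fat body markers to 78.7 to 79.5 and 75.8 to 78.3 CPM. Tm2 of the muscle list and Adh of the fat body list were at 0 in all 6 libraries, while Mef2 of the muscle list was at 99.6 to 114 CPM and bmm of the fat body list at 55.6 to 58.6 CPM. Most of the neuron sum came from Syx1A, at 147 to 175 CPM, and elav was at 21.6 to 34.4 CPM. The neuron marker nSyb was at 0.178 to 0.791 CPM.

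Each targeted transcript was low in the group treated against it. The Flacc transcript (FBgn0030974, X, 18888978 to 18893636) was at 12.4, 11.3 and 13.4 CPM in CG7358 and at 29.0, 35.9 and 42.1 CPM in Fl2d. All CG7358 libraries lay below all Fl2d libraries and below the control, at 39.4 to 43.8 CPM. The log2 difference, always CG7358 minus Fl2d here, was −1.53 ± 0.14 (SE; adjusted p = 1.2e-05, edgeR's quasi-likelihood test with Benjamini-Hochberg adjustment), which left Flacc at 29.6% of the control mean in CG7358. The fl(2)d transcript (FBgn0000662, 2R, 13819624 to 13824553) was present at 236, 226 and 230 CPM in CG7358 and 29.4, 31.9 and 27.2 CPM in Fl2d. Here the Fl2d libraries were lowest of all 18, at 16.8% of the control mean (log2 difference 2.97 ± 0.04, adjusted p = 2.53e-32 by edgeR). As a share of control the remaining transcript was thus lower for fl(2)d than for Flacc.

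Each target was also measured in the opposite knockdown. In CG7358 fl(2)d stood at 131% of the control mean, with every library above the control libraries at 171 to 180 CPM (log2 change against control 0.39 ± 0.03, adjusted p = 1.09e-10 by edgeR, in a comparison that called 37.6% of genes), and it was also above control in Ime4_dMettl14 (122%), Vir (133%) and Nito (143%). In Fl2d Flacc stood at 85.2% of the control mean, with 1 library inside the control range and the others, at 29.0 and 35.9 CPM, under it, and the change against control did not pass the threshold (−0.23 ± 0.12, adjusted p = 0.157, in a comparison that called 32% of genes). Of the tested genes within 15 kb of the targets none passed the threshold: stj, CG13339 and CG6337 beside fl(2)d and Dora and CG7332 beside Flacc had log2 differences between −0.06 and 0.10 and adjusted p from 0.22 to 0.864.

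None of the other 7 genes of m6A writing and reading passed the threshold between the knockdowns by edgeR or DESeq2, and 2, Ythdc1 and Mettl3, had an unadjusted p under 0.05. The log2 difference was 0.01 for Mettl14 (95% interval −0.09 to 0.11), −0.12 for Mettl3 (−0.24 to −0.01, adjusted p = 0.17), 0.03 for vir (−0.05 to 0.11) and −0.07 for nito (−0.15 to 0.01). Hakai, the E3 ligase gene of the complex, was measured less precisely, at 20.9, 18.8 and 19.5 CPM in CG7358 and 16.4, 16 and 20.7 CPM in Fl2d, and its interval ran from −0.03 to 0.34. The cytoplasmic reader gene Ythdf differed by 0.01 (−0.06 to 0.08) and the nuclear reader gene Ythdc1 by 0.13 (0.03 to 0.23, adjusted p = 0.0878). All of these groups of 3 libraries overlapped.

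Across the transcriptome the knockdowns differed in many genes but mostly by little. Of 8146 genes that passed the low-count filter, 958 (11.8%) differed at an adjusted p under 0.05, the threshold for a gene to be called. In CG7358 527 (6.47%) were higher and in Fl2d 431 (5.29%). The median absolute log2 difference of the called genes was 0.18, and 79 genes (0.97%) exceeded 1.5-fold, 56 of them with an average log2 CPM under 3. For 6741 genes (82.8%) the whole 95% interval lay inside 1.5-fold either way. Another 1259 genes were not called although their interval passed 1.5-fold on a side, so for these a difference of that size is not excluded. A test against a 1.5-fold difference, rather than against none, passed 5 genes, the 2 targets included. In a bulk sample a change in the number of cells of a kind and a change in RNA per cell cannot be told apart.

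The count of called genes depended on single libraries. It was 630 without CG7358 replicate 1 and 621 without Fl2d replicate 1, and 549 when only these 6 libraries were fitted. There were 402 genes, 261 higher in CG7358 and 141 higher in Fl2d, that were called with the same direction in the full fit and with each of the 6 libraries left out in turn, and these are the ones described as kept below.

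**Figure D1:**
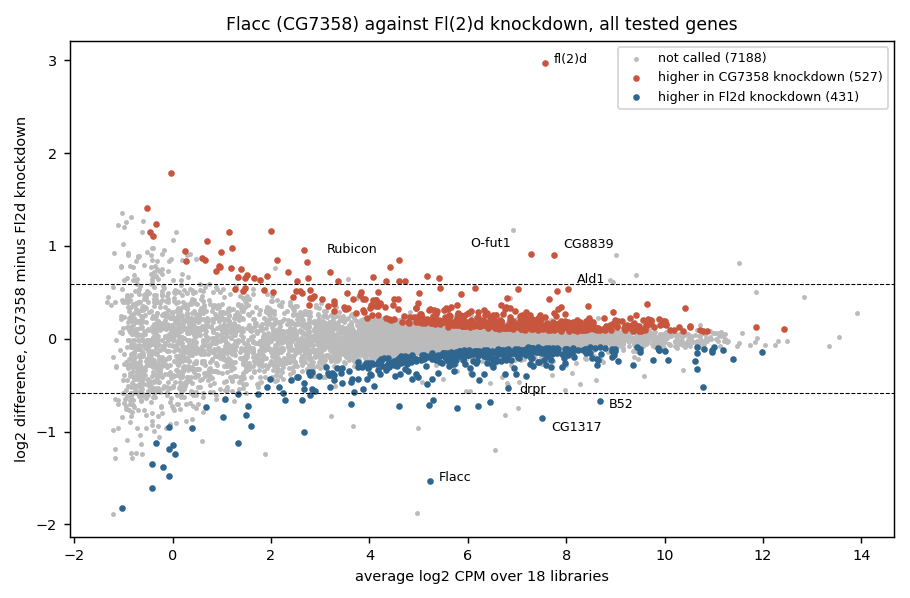
Log2 difference, CG7358 minus Fl2d knockdown, on the vertical axis against average log2 CPM over 18 libraries for the 8146 tested genes, with dashed lines at 1.5-fold. Called genes are in red (527 higher in CG7358) and blue (431 higher in Fl2d). Of them 79 exceeded 1.5-fold and 21 exceeded 2-fold, fl(2)d and Flacc included.

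Set beside the Vir knockdown, the counts were of the same order. CG7358 differed from Vir in 1120 genes (13.7%), 67 of them (0.822%) over 1.5-fold, and Fl2d differed from Vir in 487 genes (5.98%), 40 of them (0.491%) over 1.5-fold. The first count was 715 without Vir replicate 3. The second was 197 without Fl2d replicate 2 and 243 without Vir replicate 3. These comparisons share libraries with one another, and whether the counts differ was not tested.

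Genes were ranked by log2 difference leaving out both targets, where their average log2 CPM was 3 or more and the libraries did not overlap, which held for 2134 (26.2%) of all tested genes without regard to level. The 12 with the highest log2 difference included some that were lowest in Fl2d and some that were highest in CG7358, as the control levels show. O-fut1 (FBgn0033901, 2R, 14161430 to 14163054), the enzyme that adds O-fucose to the Notch receptor, was at 183, 188 and 182 CPM in CG7358 and 102, 95.4 and 96.3 CPM in Fl2d. Control libraries were at 166 to 176 CPM and the Nito mean at 141 CPM, and all Fl2d libraries were below all other 15. The log2 difference was 0.91 ± 0.04 (adjusted p = 5.04e-19 by edgeR).

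CG8839 (FBgn0033717, 2R, 12339610 to 12344617) was at 249, 248 and 251 CPM in CG7358 and 133, 127 and 140 CPM in Fl2d, with a log2 difference of 0.90 ± 0.03 (adjusted p = 3.06e-19). The control was at 259 to 280 CPM and Vir at 239 to 242 CPM. The Nito libraries were low as well, with a mean of 126 CPM. Rubicon (FBgn0030055, X, 8677063 to 8680912), the counterpart of a mammalian inhibitor of autophagy, was at 27.5, 23.6 and 25.0 CPM in CG7358 and 12.9, 13.6 and 15.7 CPM in Fl2d (0.85 ± 0.09, adjusted p = 4.54e-08). Fl2d again lay below all other 15 libraries, with the control at 24.3 to 28.2 CPM.

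Other genes on this side did not follow that pattern. CG11378 was at 26.0, 24.8 and 26.8 CPM in CG7358 and 15.4, 14.3 and 15.6 CPM in Fl2d (0.77 ± 0.09), but Vir, at 13.2 to 15.2 CPM, was as low as Fl2d, with a log2 difference between Fl2d and Vir of 0.10 ± 0.10 (adjusted p = 0.612). CG13229 and CG18135 likewise had means in Vir of no more than their means in Fl2d, and CG7358 was the nearer of these knockdowns to the control. For mthl2 (FBgn0035623, 3L, 5604790 to 5607190), which encodes a receptor of the methuselah family, CG7358 and not Fl2d differed from control at the threshold. Its levels were 61.8, 66.1 and 63.2 CPM in CG7358 against 38.1, 41.6 and 41.9 CPM in Fl2d and 39.3 to 43.6 CPM in the control (0.65 ± 0.06, adjusted p = 9.11e-10 by edgeR). CG7358 was above all other 15 libraries, a position found in 198 (2.43%) of tested genes and in 132 of the 958 called genes. The odorant-binding protein gene Obp18a was also above all other 15 libraries in CG7358 (0.67 ± 0.08), and sano, a planar polarity gene, reached 202% of control in CG7358 and 131% in Fl2d (0.63 ± 0.10). The remaining genes of the 12 were CG11563 (0.67), CG44325 (0.62) and Mal-A5, a maltase gene (0.62). CG44325 overlaps exons of CG10970, and CG18135 overlaps CG3808, so their counts are uncertain.

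In the opposite direction the 12 ranked genes with the lowest log2 difference were mostly low in CG7358. CG1317 (FBgn0035333, 3L, 2367843 to 2371939) was at 106, 106 and 108 CPM in CG7358 and at 192, 194 and 194 CPM in Fl2d. Control libraries were at 195 CPM or more and Vir at 192 to 199 CPM, and the CG7358 libraries were below all other 15. The log2 difference was −0.85 ± 0.03 (adjusted p = 3.06e-19 by edgeR).

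In other genes of the 12 CG7358 was likewise the lowest group, though the order of the other groups varied. B52 (FBgn0004587, 3R, 13661311 to 13666891), an SR protein that acts in splicing, was at 290, 278 and 276 CPM in CG7358 and 429, 449 and 467 CPM in Fl2d (−0.67 ± 0.04, adjusted p = 2.78e-15). Control libraries were at 388 to 407 CPM, so CG7358 was at 70.3% and Fl2d at 112% of the control mean. The KH-domain gene qkr54B (FBgn0022987, 2R, 17469624 to 17475129) was at 58.7, 61.6 and 57.6 CPM in CG7358 and 96.9, 94.3 and 93.5 CPM in Fl2d (−0.68 ± 0.04, adjusted p = 3.33e-14), against 97.5 to 105 CPM in the control. Irp-1B (FBgn0024957, 3R, 10408618 to 10412869), of the iron regulatory protein family, was at 44.4, 42.3 and 47.4 CPM in CG7358 and 74.5, 72.1 and 75 CPM in Fl2d (−0.73 ± 0.04, adjusted p = 5.77e-14). In these 3 genes all CG7358 libraries were below all other 15. This position was found in 176 (2.16%) of all tested genes and in 103 of the 958 called genes, from which the 12 were drawn. lncRNA:CR44779 (−0.71), the sugar transporter gene Slc45-1 (−0.72), CG8908 (−0.66), Ir62a (−0.58) and the checkpoint gene Hus1-like (−0.55) shared this position. Slc45-1, however, was at 89.3% of the control mean in CG7358 and 148% in Fl2d, and only Fl2d differed from control at the threshold. CG8908 overlaps the antisense gene asRNA:CR43812 and Hus1-like overlaps ctrip and Gmppb, and the counting strand is not given in the sources used here.

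In the other 3 genes of these 12 Fl2d lay above all other 15 libraries. The first, drpr (FBgn0027594, 3L, 1715595 to 1731107), encodes Draper, a receptor for the engulfment of dying cells. It was at 128, 134 and 137 CPM in CG7358 and 192, 187 and 198 CPM in Fl2d, against 59 to 63.7 CPM in the control. Both knockdowns were above the control, at 219% and 316% of its mean (log2 difference −0.53 ± 0.04, adjusted p = 6.55e-11 by edgeR). Fl2d was above all other 15 libraries in 58 (0.712%) of tested genes and in 31 of the 958 called genes. It overlaps Oseg4. Fl2d was also above all other 15 for CG14718 (−0.70) and CG43188 (−0.75), in which replicate 2 was at 105 CPM and the others at 85.4 and 76.7 CPM. CG14718 was at 72.5% of the control mean in CG7358 and 118% in Fl2d, so CG7358 was the further from control. All 24 of these genes were kept. They had been chosen as called and without overlap in the same libraries, so this outcome was likely from the start and is no separate support.

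**Figure D2:**
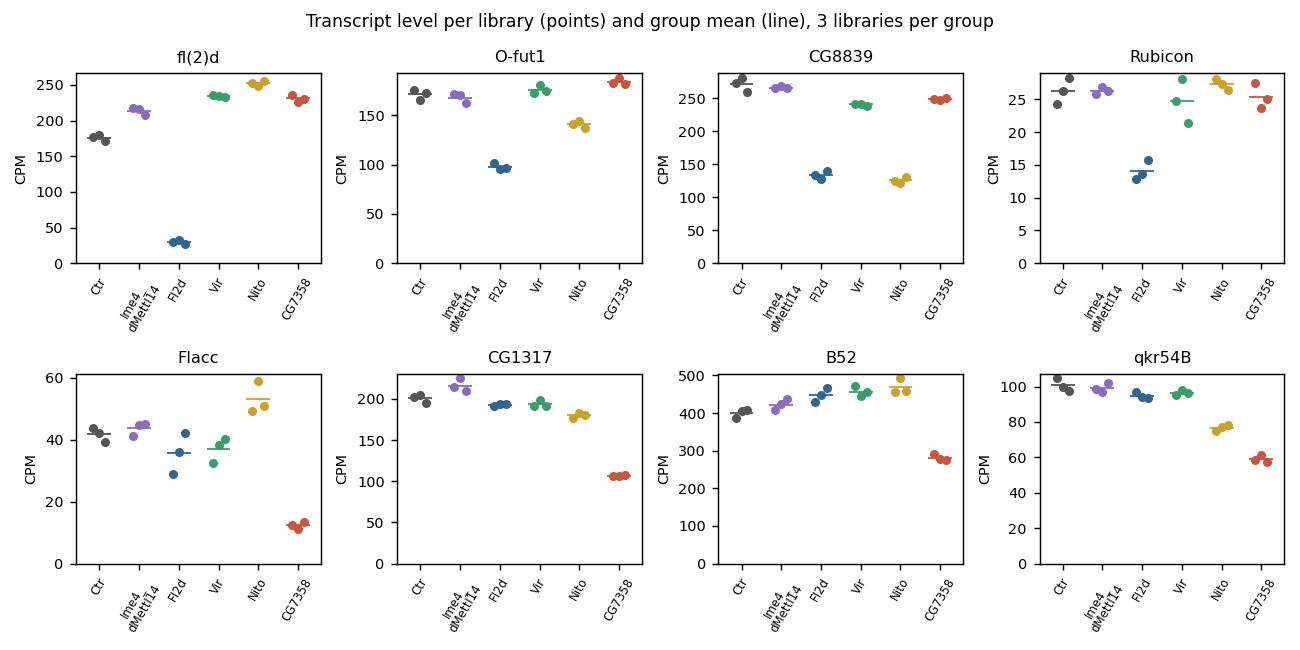
CPM on the vertical axis for each of the 18 libraries (points) and the group mean (line), for fl(2)d, Flacc and 6 ranked genes. The ranking held only called genes with an average log2 CPM of 3 or more and no overlap of libraries. O-fut1 and Rubicon are lowest in Fl2d and CG1317, B52 and qkr54B lowest in CG7358, whereas CG8839 is low in Fl2d and in Nito.

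**Figure D3:**
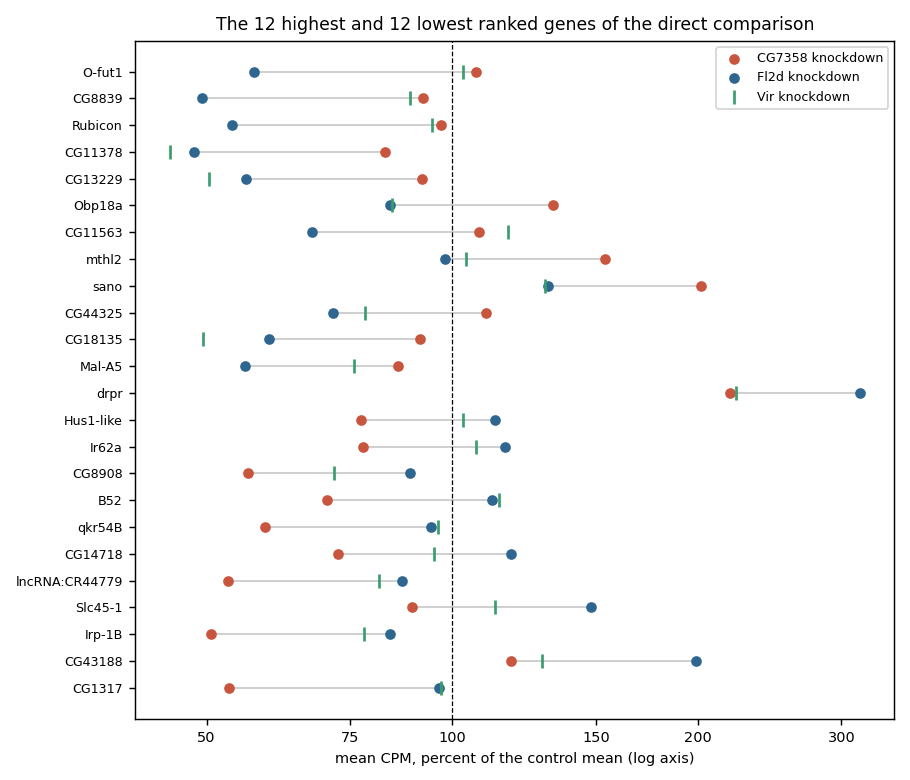
Mean CPM of the 24 genes as a percent of the control mean, on a log axis, in the CG7358 (red), Fl2d (blue) and Vir (green) knockdowns. Fl2d lies left of CG7358 in the 12 upper genes and right of it in the 12 lower ones, while Vir lies with CG7358 in some genes and with Fl2d in others.

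The control level lay between both knockdown levels in 411 of the 958 called genes, beyond the CG7358 level in 185 and beyond the Fl2d level in 362. Among the 79 over 1.5-fold it lay between in 48. These counts describe group means and carry no test.

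Cytoskeletal genes were called in a single direction, higher in CG7358. Of 26 tested members 10 (38.5%) were called higher in CG7358 and 0 lower, where 6.47% of all genes were called higher, and the median log2 difference was 0.10 against −0.003 over all genes. Among the 9 members that were kept, the log2 differences did not exceed 0.20. Rac1, a small GTPase that drives lamellipodia, was at 364, 352 and 348 CPM in CG7358 and 298, 315 and 317 CPM in Fl2d (0.19 ± 0.03, adjusted p = 3.95e-05). SCAR, which activates the Arp2/3 complex, was at 153, 146 and 148 CPM against 124, 132 and 134 CPM (0.20 ± 0.03), and the complex subunit gene Arp3 at 1070, 1050 and 1050 CPM against 950, 935 and 966 CPM (0.16 ± 0.03). For these 3 genes Fl2d was below all other 15 libraries, as it was in 62 (0.761%) of tested genes and 44 of the 958 called genes. The margin was small for Rac1 and Arp3, with the lowest control library at 318 and 967 CPM. Against control by edgeR, only Fl2d differed at the threshold for SCAR (−0.20 ± 0.03) and only CG7358 for Arp3 (0.11 ± 0.03). Rac1 differed in both, by −0.10 ± 0.03 in Fl2d and 0.09 ± 0.03 in CG7358.

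Cdc42 (0.13), Arp2 (0.11), the capping protein gene cpa (0.12), Rac2 (0.12), the myosin light chain gene sqh (0.11) and Act42A (0.10) were also higher in CG7358. All 9 of these were kept, and 4 list members were called when only the 6 libraries were fitted. alphaTub85E, the tenth, was near 0, at 0.365 to 0.454 CPM in Fl2d, and was not kept. Act5C, another cytoplasmic actin gene, did not pass the threshold (−0.06, 95% interval −0.12 to 0.00).

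Some markers of lamellocytes, the flattened blood cells of flies, were higher in CG7358 too. Of 6 tested members 3 (50%), Itgbn, cher and ItgaPS4, were called higher in CG7358, where 6.47% of all genes were, ItgaPS4 without being kept, and msn, mys and PPO3 were not called. The list's summed level was 2700 to 2880 CPM in CG7358 and 2560 to 2700 CPM in Fl2d, ranges that meet. The defining lamellocyte marker atilla was near 0 in both, at 0.178 to 0.512 CPM in CG7358 and 0 to 0.0648 CPM in Fl2d, which did not overlap. The part of such cells in the result was not tested.

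Genes of glycolysis and sugar use were also called higher in CG7358 alone. Of 17 tested members 6 (35.3%) were higher in CG7358 and 0 lower, with a median of 0.12. Ald1, the aldolase gene (FBgn0000064, 3R, 26254069 to 26261591), was at 344, 311 and 323 CPM in CG7358 and 211, 223 and 239 CPM in Fl2d, with the control between at 245 to 290 CPM (0.54 ± 0.07, adjusted p = 0.000101). It overlaps asRNA:CR44321. The gluconeogenic enzyme gene fbp was at 11.8, 12 and 11.8 CPM against 8.21, 8.43 and 8.76 CPM (0.49 ± 0.09, adjusted p = 0.000458), both under the control at 14 to 15.7 CPM. Pgk, for phosphoglycerate kinase, differed by 0.16 ± 0.04. Ald1, fbp and Pgk were kept, while Eno (0.13), Treh (0.14) and Gpo1 (0.14) were not. The list had 3 members called without Fl2d replicate 2 and 4 without CG7358 replicate 1, CG7358 replicate 2 or Fl2d replicate 1. The rate-controlling enzyme gene Pfk did not pass the threshold (−0.03, 95% interval −0.14 to 0.07), nor did PyK (0.04, −0.03 to 0.10).

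**Figure D4:**
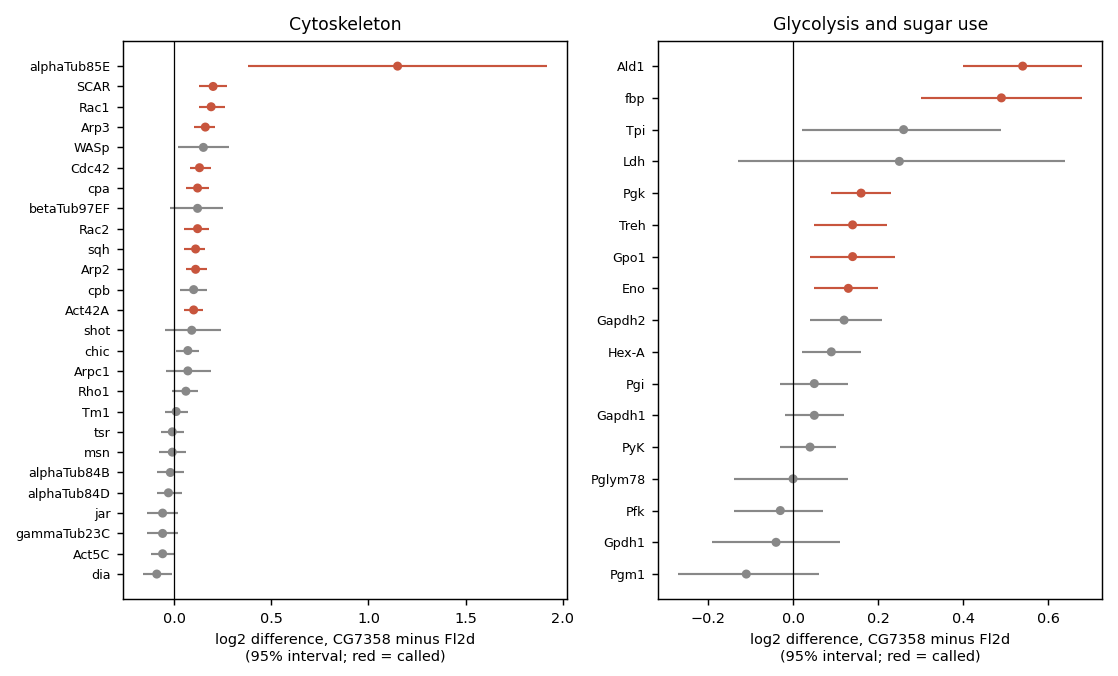
Log2 difference, CG7358 minus Fl2d, with its 95% interval for each tested member of the cytoskeleton list and of the list for glycolysis and sugar use, called members in red. Most called cytoskeletal genes lie between 0.10 and 0.20, and Ald1 and fbp stand highest among the sugar genes.

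Autophagy and V-ATPase genes had 5 of 25 members called higher in CG7358 (20%, where 6.47% of all genes were) and 0 lower, with a median of 0.07. Only VhaSFD, a subunit of the vacuolar proton pump, was kept: 228, 214 and 217 CPM in CG7358 against 162, 161 and 166 CPM in Fl2d (0.43 ± 0.03, adjusted p = 1.77e-11), with the control at 222 to 225 CPM and Fl2d below all other 15 libraries. The list had 1 member called without CG7358 replicate 3 or Fl2d replicate 1, 2 without CG7358 replicate 1 and 3 without Fl2d replicate 2.

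SR proteins and other splicing regulators, a list that holds B52, were called in the opposite direction. Of 18 tested, 3 were higher in Fl2d (16.7%, where 5.29% of all genes were) and 0 in CG7358, with a median of −0.05. SC35 was at 108, 114 and 99.2 CPM in CG7358 and 137, 127 and 134 CPM in Fl2d (−0.31 ± 0.04, adjusted p = 5.11e-06), with the control at 124 to 127 CPM. B52 and SC35 were kept. SC35 overlaps eRF3. Of 17 genes in the hnRNP and KH-domain list 2 (11.8%), glo (−0.14) and nonA (−0.10), were higher in Fl2d and 0 in CG7358. The share of all genes called on either side was also 11.8%. This list does not hold the KH-domain gene qkr54B, which was higher in Fl2d by a larger difference (−0.68 ± 0.04). Of glo and nonA only glo was kept. Of 13 tested in the exon junction list 2 were higher in Fl2d (15.4%, where 5.29% of all genes were). These were RnpS1 (−0.32 ± 0.08) and tsu (−0.15 ± 0.04), and neither was kept. Without Fl2d replicate 3, 3 hnRNP and KH-domain genes, 2 exon junction genes and 1 gene of the splicing regulator list were called higher in CG7358.

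All ribosomal protein genes that were called were higher in Fl2d. Of 74 cytosolic members 9 (12.2%) were higher in Fl2d, where 5.29% of all genes were, and 0 in CG7358. The share called was thus near the 11.8% of all genes called on either side. There were 64 negative estimates and a median of −0.04. RpS27A was at 1930, 1950 and 1860 CPM in CG7358 and 2110, 2180 and 2070 CPM in Fl2d (−0.15 ± 0.03, adjusted p = 0.000814), and RpS25 differed by −0.13 ± 0.03. Both were kept, and the other 7 were not. The count was 4 without CG7358 replicate 2 or Fl2d replicate 1, 3 without CG7358 replicate 3 and 2 without Fl2d replicate 2. Of 67 mitochondrial ribosomal genes 3 were higher in Fl2d and 0 in CG7358, and of 54 nuclear genes of the respiratory chain 1, COX6B, was higher in CG7358 (0.24 ± 0.05). These shares called, 4.48% and 1.85%, were under the 11.8% of all genes, and mRpL44 and COX6B were kept. COX6B overlaps CG18809.

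Replication and mitosis genes were called only on the Fl2d side. Of 25 replication genes 3 were higher in Fl2d (12%, where 5.29% of all genes were, and 11.8% were called on either side), with the polymerase gene PolA1 at 94.7, 96.8 and 95.9 CPM in CG7358 and 107, 105 and 108 CPM in Fl2d (−0.16 ± 0.03, adjusted p = 0.00224). PolA1 and the origin recognition gene Orc6 (−0.24 ± 0.06) were kept. Of 25 mitosis genes 4 (16%) were higher in Fl2d, among them BubR1 (−0.12 ± 0.03), and none was kept, with 1 called without CG7358 replicate 1 or CG7358 replicate 2, 2 without CG7358 replicate 3, Fl2d replicate 2 or Fl2d replicate 3, and 0 without Fl2d replicate 1. 

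Matrix and adhesion genes went both ways. Of 25 tested, 5 were higher in CG7358 and 5 in Fl2d, or 20% on each side, where 6.47% and 5.29% of all genes were, with a median of −0.01. Tig, which encodes the integrin ligand Tiggrin, was at 240, 246 and 252 CPM in CG7358 and 203, 192 and 214 CPM in Fl2d (0.27 ± 0.04, adjusted p = 4.55e-06), both under the control at 288 to 312 CPM. The integrin gene mew was at 91.7, 99.4 and 101 CPM in CG7358 and 123, 135 and 122 CPM in Fl2d (−0.38 ± 0.04, adjusted p = 2.03e-07), with the control at 121 to 125 CPM. The metalloprotease gene Mmp2 (0.22 ± 0.04), Itgbn (0.30 ± 0.05) and parvin (0.19 ± 0.03) were higher in CG7358, and the matrix gene Ppn in Fl2d (−0.42 ± 0.07). These 6 were kept. Without CG7358 replicate 2, CG7358 replicate 3, Fl2d replicate 2 or Fl2d replicate 3, 3 members were called higher in Fl2d. The gene mew overlaps CG15742.

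Genes of axon guidance and adhesion were higher in CG7358 in 5 of 30 (16.7%, against 6.47% of all genes) and higher in Fl2d in 2 (6.67%, near the 5.29% of all genes). Of the 30 estimates, however, 19 were negative and 11 positive, with a median of −0.03. Kal1 was at 48.2, 52.4 and 51.6 CPM in CG7358 and 34.6, 38.3 and 35.5 CPM in Fl2d, both above the control at 18.9 to 21.1 CPM (0.49 ± 0.06, adjusted p = 2.53e-07). The netrin receptor gene unc-5 (0.36 ± 0.05), caps (0.43 ± 0.09) and Fas2 (0.53 ± 0.12) were kept as well, and the 2 on the Fl2d side, robo2 and Eph, were not. In the Notch list 4 of 21 (19%) were higher in CG7358 and 1 (4.76%) in Fl2d, against the same shares of all genes. Besides O-fut1, the Notch target gene E(spl)m3-HLH was at 22.9, 19.9 and 20.9 CPM in CG7358 and 15.8, 14.6 and 17.2 CPM in Fl2d (0.42 ± 0.08, adjusted p = 0.000519), and Nedd4, a ubiquitin ligase acting on Notch, was higher in Fl2d (−0.16 ± 0.03). All 3 were kept, and mam (0.33) and N itself (0.12) were not. The Notch list had 2 members called higher in CG7358 without CG7358 replicate 2 or CG7358 replicate 3.

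**Figure D5:**
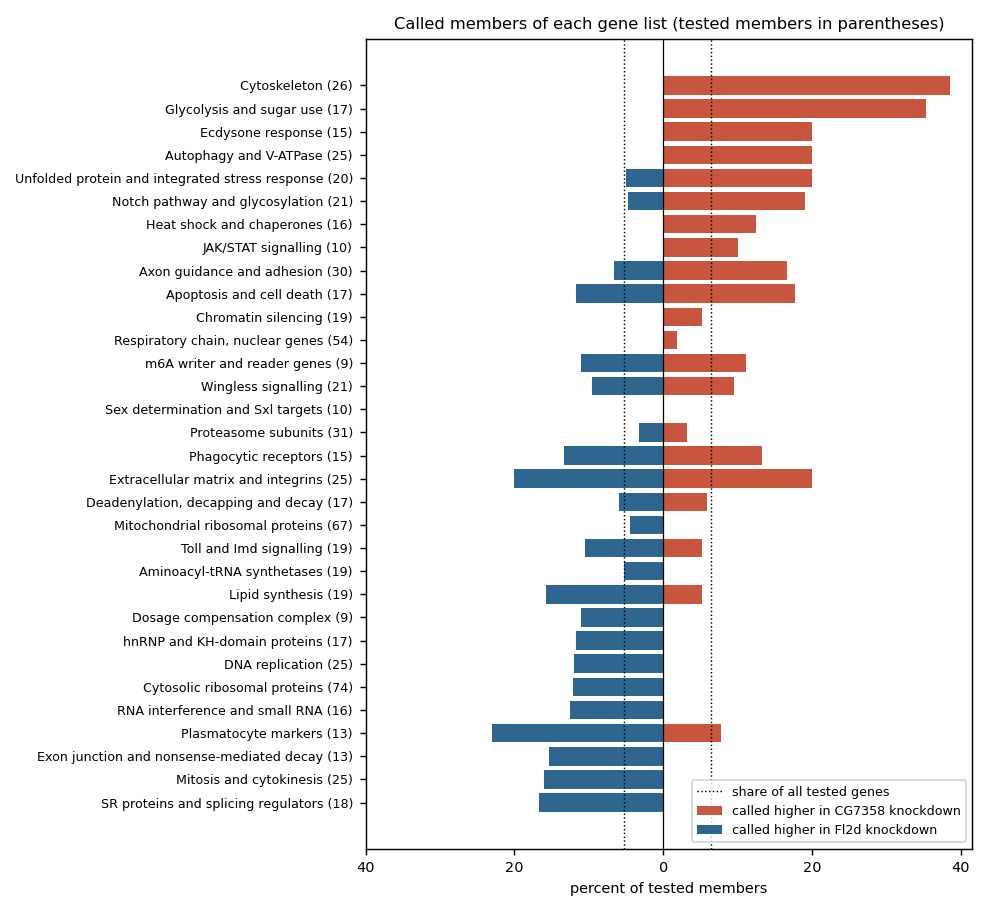
Percent of tested members of each gene list called higher in CG7358 (red, to the right) or higher in Fl2d (blue, to the left), with the number tested in parentheses and dotted lines at the shares of all genes, 6.47% and 5.29%. Cytoskeleton and sugar use extend to the right only, and the splicing, mitosis and ribosomal protein lists to the left only.

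Genes of cell death were called on both sides. Of 17 tested, 3 (17.6%) were higher in CG7358 and 2 (11.8%) in Fl2d, where 6.47% and 5.29% of all genes were. The effector caspase gene Drice was at 138, 131 and 131 CPM in CG7358 and 108, 114 and 118 CPM in Fl2d (0.23 ± 0.04, adjusted p = 0.000113), and the death activator rpr differed by 0.36 ± 0.08. The TNF ligand gene egr was higher in Fl2d, at 847, 861 and 847 CPM against 762, 773 and 770 CPM (−0.15 ± 0.03, adjusted p = 0.000458), and both groups were above the control at 674 to 692 CPM. Drice, rpr and egr were kept, and Dronc and wgn were not. Among 20 members of the list for unfolded protein and integrated stress responses 4 (20%) were higher in CG7358 and 1 (5%), Sesn, in Fl2d, beside the same shares of all genes. Of these Xbp1 and Gp93 (both 0.14 ± 0.03), higher in CG7358, were kept. Socs36E, a target and inhibitor of JAK/STAT signalling, was at 152, 155 and 156 CPM in CG7358 and 131, 138 and 137 CPM in Fl2d (0.19 ± 0.03), with the control at 101 to 110 CPM, and was kept.

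Lipid synthesis, immune and Wingless genes also held members on each side. The desaturase gene Desat1 was higher in CG7358 (0.20 ± 0.04), and mdy, which makes triglyceride, higher in Fl2d (−0.40 ± 0.08), with both knockdowns, at 57.2% and 75.6% of the control mean, below control. The Toll ligand gene spz was higher in CG7358 (0.13 ± 0.03) and the NF-kappaB gene dl higher in Fl2d (−0.18 ± 0.04). The Wnt secretion gene wls was higher in CG7358 (0.17 ± 0.03) and Apc, an inhibitor of the pathway, higher in Fl2d (−0.22 ± 0.04). The ecdysone target Eip74EF (0.25 ± 0.05), the small heat shock gene Hsp27 (0.42 ± 0.08) and the histone methyltransferase gene Su(var)3-9 (0.34 ± 0.07) were higher in CG7358. All of these genes were kept. Su(var)3-9 overlaps eIF2gamma, so its count is uncertain.

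Of 13 tested plasmatocyte markers 1 (7.69%), the scavenger receptor gene Sr-CI, was higher in CG7358, near the 6.47% of all genes. Higher in Fl2d were 3 (23.1%), drpr, Ppn and Pxn, against 5.29% of all genes, and the median was −0.01. Of these drpr and Ppn were kept. The list's summed level was 2070 to 2100 CPM in CG7358 and 2140 to 2180 CPM in Fl2d. Crystal cell, neuron, muscle, fat body and germline markers had 0 members called on either side among 3, 6, 4, 3 and 5 tested, by edgeR and by DESeq2. With 11.8% of all genes called by edgeR, lists this short can hold 0 calls. At an unadjusted p under 0.05 the neuron, muscle, fat body and germline lists held 1 member each and the crystal cell list 0.

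Genes of sex determination, the best known function of fl(2)d in flies, showed no called difference. Of 10 tested members 0 were called by edgeR, where 11.8% of all genes were, and so short a list can hold 0 at that share. At an unadjusted p under 0.05 there was 1, and DESeq2 called 1, Unr. Apart from Unr the log2 differences of the members lay between −0.07 and 0.12. Sxl was at 8.73, 9.09 and 10.4 CPM in CG7358 and 9.68, 9.54 and 7.06 CPM in Fl2d (0.10, 95% interval −0.20 to 0.41). tra differed by 0.02 (−0.11 to 0.16) and msl-2 by −0.01 (−0.13 to 0.11). Gene-level counts do not show splice forms, through which these genes are known to act. Unr had 221 CPM in Fl2d replicate 2 against 35.6 and 33.3 CPM in the other replicates, and its log2 difference of −1.88 ± 0.66 did not pass the threshold (adjusted p = 0.0926). In the dosage compensation list 1 of 9 tested members (11.1%) was called, near the 11.8% of all genes. This was msl-1, higher in Fl2d (−0.12 ± 0.04, adjusted p = 0.0343 by edgeR), and it was not kept.

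On the side of a list with 0 calls by edgeR, a looser threshold gave these counts. At an unadjusted p under 0.05 there were 2 cytoskeletal genes, 0 sugar use genes and 0 autophagy and V-ATPase genes higher in Fl2d. Higher in CG7358 there were 1 gene of the splicing regulator list, 3 hnRNP and KH-domain genes, 1 exon junction gene, 0 cytosolic and 1 mitochondrial ribosomal protein genes, and 0 replication and 0 mitosis genes. DESeq2 called none of these except 1 hnRNP and KH-domain gene, higher in CG7358.

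By chromosome the share called was 10.8% on X, 11.6% on 2L, 12.7% on 2R, 12.2% on 3L and 11.3% on 3R. On the small chromosome 4 7 of 83 genes were called (8.43%), all of them higher in Fl2d, and its median log2 difference was −0.11. Of 329 noncoding RNA genes 19 (5.78%) were called, and of 7556 protein-coding genes 908 (12%). The 15 mitochondrial genes had 0 calls by edgeR or DESeq2, 2 with an unadjusted p under 0.05, and a median of 0.61, with values from −1.24 to 1.18.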

How the data were processed

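Each deposited file lists, for 1 library, raw read counts by FlyBase gene ID. Alignment to BDGP6, STAR 2.5.1b and counting software featureCounts 1.5.1 appear in the submitters' processing notes, without settings. A directional kit was used, per the labels' protocols; the strand setting of the counting was not given in the sources used here. Of 17559 IDs, 17253 matched an Ensembl annotation of the same assembly, which gives the positions, and 306, with 4.83% of counts, did not.

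Counts were fitted in R 4.3.3 with edgeR 4.0.16: filterByExpr, TMM scaling, and a robust quasi-likelihood model of all 18 libraries with 1 coefficient per group. The groups come from the treatment label. Benjamini-Hochberg adjustment ran over all 8146 genes. The SE is the log2 difference divided by the square root of F. The common biological coefficient of variation was 0.0432. Between replicates the counts varied beyond sampling (chi-square per degree of freedom 6.37 to 12.7). The test was checked on simulated counts. Alternatives included DESeq2 1.42.0 and leaving out each library.

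The comparison, the naming rule and 38 gene lists were chosen with earlier results of these data known. The rule names the m6A genes, the 12 highest and 12 lowest called genes (average log2 CPM of 3 or more, libraries without overlap, both targets left out) and up to 3 called members of each list by p. Other list members named, the neighbours of the targets, Unr, and the genes at 0 were chosen after their values were seen. Many named genes overlap a neighbour or an antisense gene, also where the text does not say so, and their counts are uncertain to that extent. Not every gene the rule gives is reported here. No set test was run.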

Additional observations from a re-analysis of the deposited data

How the results depend on the processing

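The log2 differences of Flacc and fl(2)d kept direction and call under all 12 alternatives run for them. The 958 genes called between CG7358 and Fl2d became 950 with DESeq2 size factors, 706 with DESeq2, 1008 without a filter on low counts and 971 with CPM above 5 in 3 libraries. They became 549 when only the libraries compared were fitted and 5 in the test against 1.5-fold, and 621 to 1022 on leaving out a library. CG7358 against Vir went from 1120 to 5 in the test against 1.5-fold and to 715 to 947 on leaving out a library. Fl2d against Vir went from 487 to 237 with only the libraries compared, to 5 in the test against 1.5-fold and to 197 to 634 on leaving out a library. The 79 genes over 1.5-fold became 46 with DESeq2 and 35 with CPM above 5 in 3 libraries, a filter that removes low genes; the cause of the other changes was not tested.

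What the replicate numbers stand for is not known here. Deviations of same-numbered CG7358 and Fl2d libraries correlated at −0.01, −0.07 and −0.24, and the other groups were not included. With the replicate number as a block 930 genes were called, 895 of them among the 958. Against Vir the block gave 1093 genes for CG7358 and 484 for Fl2d.

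Differences that were not called changed sign in 4 cases: vir to 0 without CG7358 replicate 2, Mettl14 to −0.01 without CG7358 replicate 3 and −0.02 without Fl2d replicate 3, and Sxl to −0.03 without Fl2d replicate 3. On leaving out a library they ran from 0 to 0.08 for vir, −0.02 to 0.04 for Mettl14 and −0.03 to 0.19 for Sxl. For 1259 uncalled genes the interval passes 1.5-fold, whether through depth or replicate spread was not tested.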
